A study of Mus musculus with 2 samples.

Results

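The insulin-like growth factor (IGF) system was examined in mouse embryonic fibroblasts (MEFs, connective tissue cells grown from embryos) with and without Lats2, a kinase of the Hippo pathway that restrains the coactivators YAP and TAZ. The members were 10 genes chosen by name: the ligands Igf1 and Igf2, the receptors Igf1r and Igf2r, and the binding proteins Igfbp2, Igfbp3, Igfbp4, Igfbp5, Igfbp6 and Igfbp7. They were 10 of the 27745 gene names on the array and were read by 20 probes. RNA of untreated Lats2-/- MEFs (KO) and RNA of untreated Lats2+/+ MEFs (WT), both from C57BL/6J mice, were labelled with the dyes Cy5 and Cy3 and hybridised together to 2 whole mouse genome arrays, with the dyes exchanged on the second. The genotype field spells the gene LAT2, and the titles spell it LATS2. The genotype is that of the mice the cells came from, and the labels name neither the age of the embryos nor how many embryos or cultures gave each RNA. No separate replicate was named, so the pair of arrays was treated as a dye exchange of 1 pair of RNAs. No test of the genotype was therefore possible, and every difference below is one between 2 RNAs.

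IGF1 and IGF2 are secreted peptides that promote growth and survival through the IGF1 receptor, a tyrosine kinase. The IGF2 receptor binds IGF2 and carries it to lysosomes for breakdown. The binding proteins hold the ligands in the pericellular space and in body fluids and can block or prolong their action. Proteases that cleave the binding proteins release the ligands. Fibroblasts are a known source of both ligands and of several binding proteins.

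All values are log2 ratios of the intensity in the RNA labelled KO over that in the RNA labelled WT, so that 1 is a 2-fold higher level and -1 a 2-fold lower level. A gene was called when its ratio was at least 2-fold, with the same sign, on each array and Feature Extraction, the scanner software, flagged its probe as well above background on both arrays in the RNA where it was higher. Where a gene had several probes, the one with the highest intensity stood for it. Between the arrays, 1 probe's ratio had an SD of 0.133 over 24186 probes above background, and a mean of both had an SD of 0.0941. Of the 20 member probes, 19 gave a ratio and 9 of the 10 genes could be read, because the single Igfbp7 spot was set aside for uneven signal on both arrays. A lower level in a culture of mixed cells can come from fewer cells of a type or from less RNA per cell, and arrays of bulk RNA cannot tell these apart.

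The 4 probes of the targeted gene Lats2 did not run one way. The brightest had ratios of 0.52 and 0.60, and 3 of the 4, between chr14:56644080 and chr14:56645305, were higher on each array in the RNA labelled KO. The fourth, at chr14:56676512-56676571, was above background in both RNAs and lower in the RNA labelled KO, with ratios of -0.18 and -0.51 and a mean of -0.35. Which part of Lats2 was deleted is not given in the sources used here, so these probes do not check the labels. The RNAs are therefore named by their labels throughout, and every direction rests on those labels.

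Of the 9 readable genes, 4 were called. Igf1, Igfbp5 and Igfbp3 were higher in the RNA labelled KO, and Igfbp2 was lower. Over the array, 5.56% of 15877 genes above background were called, 2.95% as higher and 2.61% as lower. The members were chosen with earlier results of these data known, so these shares are background and no excess can be read from them. The median ratio of the 9 genes was -0.14, beside a median of 0.00 over all genes with a usable probe, so the members did not shift together but spread to both sides. At 1.5-fold on each array, Igfbp6 joined the lower genes, which gave 3 higher, 2 lower and 4 genes that stayed under that size. The shares over the array at 1.5-fold were 7.04% higher and 7.17% lower.

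**Figure D1:**
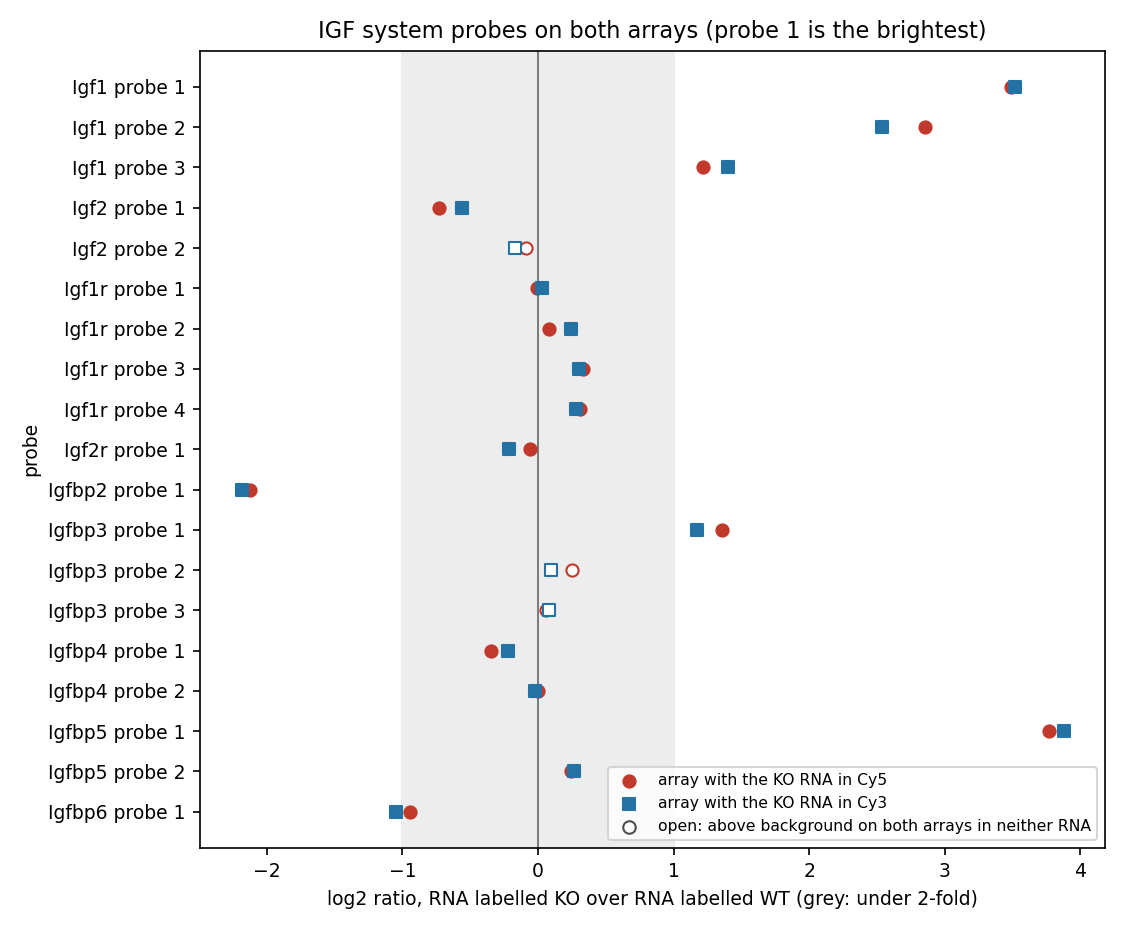
Log2 ratio of the RNA labelled KO over the RNA labelled WT (horizontal axis) for each of the 19 usable probes of the IGF system, with 1 symbol per array and the range under 2-fold in grey. All 3 Igf1 probes, 1 Igfbp5 probe and 1 Igfbp3 probe lie right of the grey range on both arrays, and the Igfbp2 probe lies left of it.

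Igf1, the ligand that drives postnatal growth and acts locally in connective tissue, differed strongly. Its brightest probe (chr10:87360570-87360629 on NCBI36/mm8, 10 spots per array) had normalised intensities of 1964 in Cy5 and 1872 in Cy3 in the RNA labelled KO. In the RNA labelled WT the same probe gave 175 in Cy3 and 164 in Cy5. Both KO values thus lay far above both WT values, whichever dye carried them. The ratios were 3.49 and 3.52, with a mean of 3.50 or 11.3-fold. Among the 10 spots of that probe the ratio ran from 3.41 to 3.59 on the first array (SD 0.0561) and from 3.39 to 3.62 on the second (SD 0.0785).

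The other Igf1 probes gave the same direction with smaller ratios. The probe at chr10:87343472-87343531 read 1414 and 1222 against 195 and 210, with a mean ratio of 2.70 (6.49-fold). The third, at chr10:87292436-87292495, was dim, at 176 and 156 in the RNA labelled KO. In the RNA labelled WT it was not well above background. Its ratios were 1.22 and 1.40, with a mean of 1.31 (2.48-fold). All 3 Igf1 probes met the 2-fold rule. By mean ratio Igf1 ranked 26th highest of the 15877 genes.

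Igf2, the fetal ligand expressed from the paternal allele, was dim in both RNAs. Its brighter probe (chr7:142460185-142460245, 10 spots) read 67.3 and 81.7 in the RNA labelled KO, on neither array well above background. Its readings with the RNA labelled WT, 112 and 121, were above background on both. The ratios were -0.73 and -0.56, with a mean of -0.65 (1.57-fold lower), which fell short of the 2-fold rule. The second Igf2 probe had ratios of -0.09 and -0.17 and, in the RNA labelled WT, passed the background flag on only 1 array. The lower reading of Igf2 therefore rests on 1 probe near the detection limit.

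Neither receptor was called. The brightest Igf1r probe (chr7:68105625-68105684), for the receptor that transmits both ligands' signals, read 4104 and 3954 in the RNA labelled KO and 4121 and 3881 in the RNA labelled WT. Those 4 values overlap, and the ratio was 0.01. The other 3 Igf1r probes had mean ratios of 0.16, 0.32 and 0.30, each higher on both arrays for the RNA labelled KO, but none reached 1.5-fold. Igf2r, the clearance receptor for IGF2, had 1 probe on chromosome 17, with intensities of 5472 and 5034 against 5711 and 5847. Its ratios of -0.06 and -0.22 had a mean of -0.14, beside an SD of 0.0941 for a mean of both arrays.

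**Figure D2:**
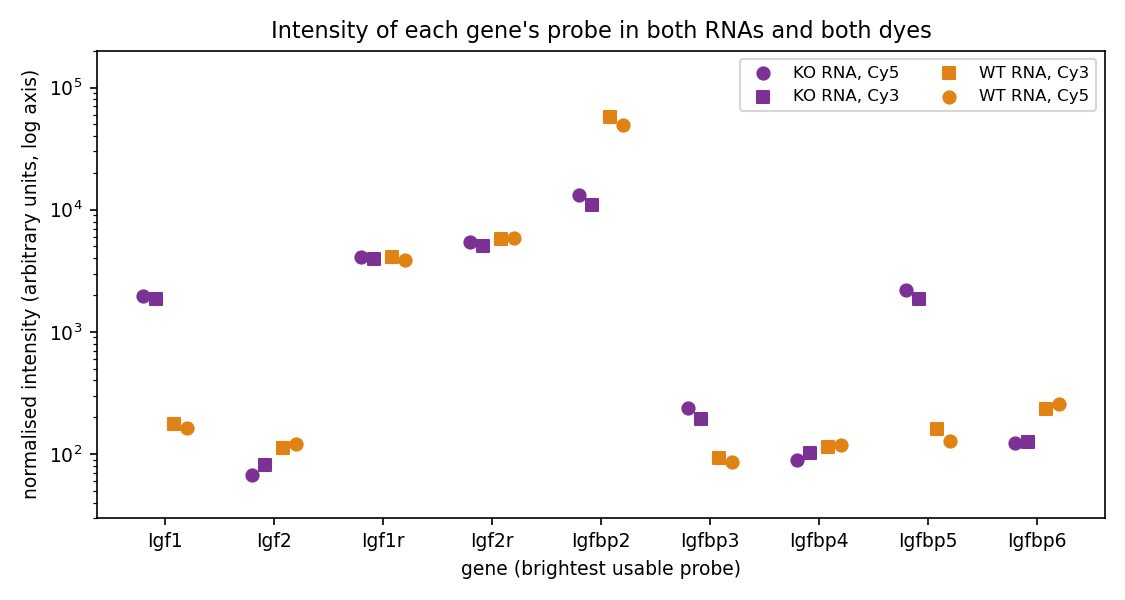
Normalised intensity in arbitrary units (log axis) of the brightest usable probe of 9 IGF system genes, with purple symbols for the RNA labelled KO, orange for the RNA labelled WT, circles for Cy5 and squares for Cy3. The KO and WT symbols are far apart for Igf1, Igfbp2 and Igfbp5, while those of Igf1r overlap, and levels are not comparable between genes because each probe hybridises differently.

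Under the processing used here, the binding proteins held both the highest and the lowest ratios of the system. Igfbp5, a binding protein that adheres to extracellular matrix, had the highest. Its brighter probe (chr1:72791462-72791521) read 2197 in Cy5 and 1870 in Cy3 in the RNA labelled KO, against 161 in Cy3 and 127 in Cy5 in the RNA labelled WT. In each dye the single KO value lay above the single WT value. The ratios of 3.77 and 3.88 had a mean of 3.82 or 14.2-fold, the 16th highest of all ranked genes. A second probe, at chr1:72793999-72794058, was dim, with 86.2 and 80.7 against 72.7 and 67.0. It was higher on both arrays, by 0.25 and 0.27 on the log2 scale, but for the RNA labelled WT it was not well above background, and it did not reach 1.5-fold. The size of the Igfbp5 difference thus comes from 1 of 2 probes.

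Igfbp2, a binding protein abundant in fetal tissues, had the lowest ratio under the processing used here. Its single probe (chr1:72785310-72785369) read 13090 and 10850 in the RNA labelled KO and 57140 and 49400 in the RNA labelled WT. The level in the RNA labelled KO was 22.4% of that in the RNA labelled WT, with ratios of -2.13 and -2.19 and a mean of -2.16. It ranked 53rd lowest of the 15877 genes. The probe was far above background in both RNAs, and its mean ratio stayed between -2.02 and -2.19 under the other ways of processing.

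Igfbp3, the main carrier of IGFs in serum, was higher on a lower level. Its brightest probe (chr11:7106594-7106653) read 238 and 192 in the RNA labelled KO and 92.9 and 85.2 in the RNA labelled WT. The ratios of 1.36 and 1.17 had a mean of 1.26, or 2.40-fold. The remaining 2 Igfbp3 probes were not well above background on both arrays in either RNA, and their mean ratios were 0.17 and 0.07. Igfbp3 ranked 354th highest of the 15877 genes.

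Igfbp6, which prefers IGF2 over IGF1, read 122 and 125 in the RNA labelled KO and 235 and 258 in the RNA labelled WT at chr15:101977366-101977426. Both WT values lay above both KO values. The ratios were -0.94 and -1.05, so that the second array passed 2-fold and the first did not. Igfbp4, an inhibitor of IGF action that is cleaved by the protease PAPP-A, had 2 dim probes on chromosome 11. The brighter one had ratios of -0.34 and -0.22 and the other 0.00 and -0.02, and neither reached 1.5-fold. In the order of the mean ratios, from Igfbp5 through Igf1, Igfbp3, Igf1r, Igf2r, Igfbp4, Igf2 and Igfbp6 to Igfbp2, the steps from Igf1r to Igf2r and from Igf2r to Igfbp4 were 0.15 and 0.14. Both steps were close to the SD of 0.133 of 1 probe between the arrays, so neither pair of neighbours is separated. The other steps were 0.32 or more, but the order holds only for this processing and choice of probe. With Feature Extraction's ratio Igf2, at -2.70, lay below Igfbp2, at -2.17. With the mean over all probes Igf1, at 2.50, lay above Igfbp5, at 2.04.

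**Figure D3:**
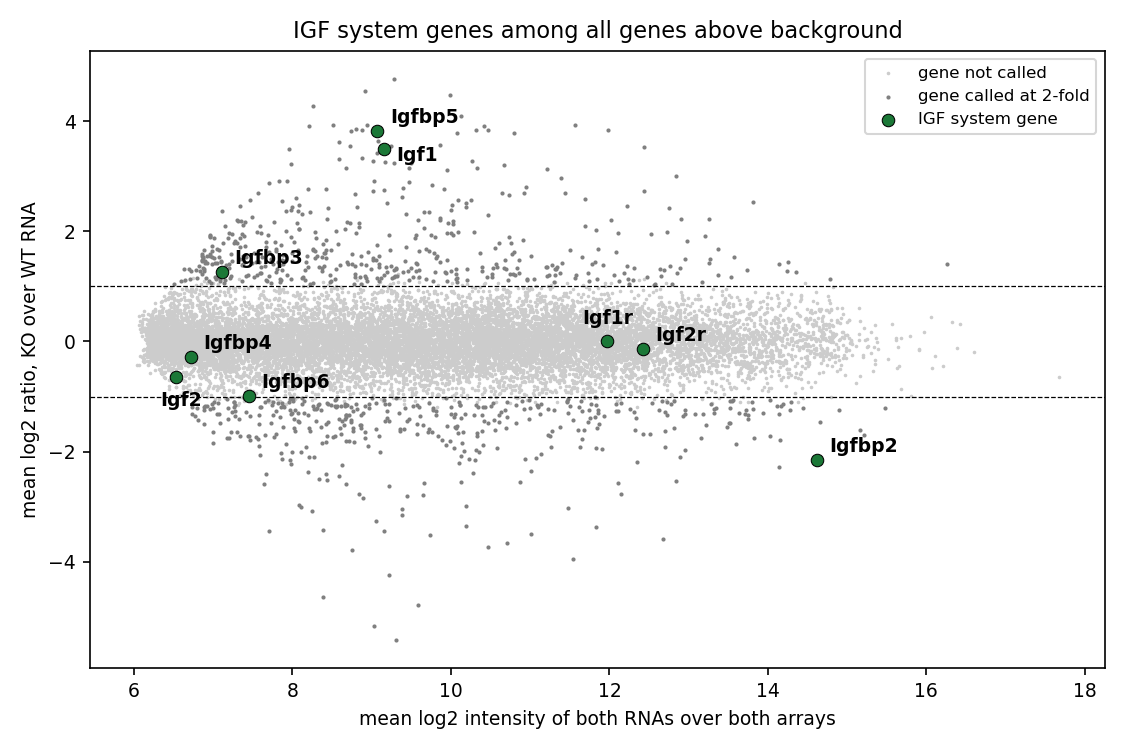
Mean log2 ratio of KO over WT RNA against mean log2 intensity for the 15877 genes above background in at least 1 RNA, with the 9 readable IGF system genes in green and dashed lines at 2-fold. Igfbp5 and Igf1 lie near the upper edge of the cloud, and Igfbp2 lies below the lower dashed line at the right, among bright genes.

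Igfbp2 and Igfbp5 are neighbours on chromosome 1, and their ratios had opposite signs. In the files' coordinates 6092 bases separated the Igfbp2 probe from the nearest Igfbp5 probe. Within 500000 bases on each side the array held 11 other probes. A usable value was obtained for 10 of them, of which 6 were above background. Only probes above background can be called. None of those 6 was called at 2-fold or at 1.5-fold, and their ratios ran from -0.10 to 0.24. Over the array, 5.56% and 14.2% of genes above background were called at these sizes, so the absence of calls among 6 probes says little about the region.

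The upstream sequences of the 3 genes with the largest ratios are shown because those genes differed most under the processing used here, and in both directions. RefSeq (GRCm38.p6) windows of 250 bases before the annotated start were available for all 10 members, 14 windows in all. They were searched on both strands for GGAATG, a core of the sites bound by TEAD factors, the DNA-binding partners of YAP and TAZ. Matches are in capitals, and on the printed strand the reverse complement reads CATTCC.
Igfbp5, chr1:72874866-72875115, minus strand: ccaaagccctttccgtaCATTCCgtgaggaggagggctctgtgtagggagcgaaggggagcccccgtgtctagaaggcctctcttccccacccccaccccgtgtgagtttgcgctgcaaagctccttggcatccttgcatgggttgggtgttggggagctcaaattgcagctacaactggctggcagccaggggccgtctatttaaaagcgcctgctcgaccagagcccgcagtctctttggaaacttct
Igf1, chr10:87860861-87861110, plus strand: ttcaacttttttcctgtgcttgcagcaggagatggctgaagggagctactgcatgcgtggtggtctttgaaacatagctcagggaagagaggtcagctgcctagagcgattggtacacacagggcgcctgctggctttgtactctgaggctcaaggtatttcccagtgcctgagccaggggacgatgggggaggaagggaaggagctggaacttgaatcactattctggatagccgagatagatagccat
Igfbp2, chr1:72824230-72824479, plus strand, the first of 2 annotated starts: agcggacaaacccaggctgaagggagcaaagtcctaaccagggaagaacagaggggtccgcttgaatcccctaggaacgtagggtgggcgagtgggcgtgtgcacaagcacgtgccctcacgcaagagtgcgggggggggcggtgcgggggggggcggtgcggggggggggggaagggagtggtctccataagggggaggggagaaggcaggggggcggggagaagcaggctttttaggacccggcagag

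The Igfbp5 window held 1 match, which began at position -233, counted back from -1 at the last base before the start. The Igf1 window and both Igfbp2 windows held none. Among all member windows 4 had a match, 1 of Igfbp5 and 3 of Igf2, and over the 32851 windows of the table the share was 12.6%. The GC content was 58.8% for Igfbp5, 52.8% for Igf1 and 67.2% for the Igfbp2 window shown, beside a median of 52.4% over all windows. On this build Igfbp2 lies on the plus strand and Igfbp5 on the minus strand, further along, so that both genes are transcribed towards each other. A match of 6 letters is a description of the sequence and not a site.

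The other genes of the pathway were read from 4 lists, whose counts stand beside the shares over the array given above. The list for IGF availability held 9 genes, including further binding proteins, the acid-labile subunit Igfals, the proteases that free IGFs and their stanniocalcin inhibitors. A ratio was obtained for 8 of them, and 5 of these were above background in neither RNA. None of the 8 reached 1.5-fold in either direction. The remaining gene, Htra1, which encodes a secreted serine protease, was above background in both RNAs, but its only spot was set aside on both arrays for uneven signal. With that spot kept, its ratios were -1.96 and -1.67, a mean of -1.81, and these stand outside the counts and the median of the list. The median of the 8 was -0.01, and Igfbp1, a binding protein of liver, was nearest to 0 at -0.01. The pregnancy-associated protease gene Pappa was above background in both RNAs and had a ratio of 0.07, named after its value was seen.

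The list for signalling below the receptors held 27 genes, of which 25 were read here and 24 were above background. Here 3 genes were higher at 1.5-fold, 1 of them at 2-fold, and none was lower. Over the array 7.04% of genes were higher and 7.17% lower at 1.5-fold, and 2.95% were higher at 2-fold. With 24 genes, no shift of the list can be read from these counts. Grb10, an imprinted adaptor that binds the IGF1 and insulin receptors and dampens their signal, read 15540 and 16480 in the RNA labelled KO and 3109 and 2870 in the RNA labelled WT. Both KO values exceeded both WT values, and the ratios of 2.32 and 2.52 had a mean of 2.42 (5.36-fold). The other 2 Grb10 probes were also called, with mean ratios of 1.74 and 1.27.

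Irs1, the docking protein that couples the receptor to phosphoinositide 3-kinase, had ratios of 1.07 and 0.61 on its brightest probe and a mean of 0.79 on its second. Pik3cb, a catalytic subunit of that kinase, had 0.85 and 0.69 on its brighter probe, and its second probe was not above background. The genes of the list that did not reach 1.5-fold included Insrr, an orphan receptor of the insulin receptor family, which was nearest to 0 with a mean of -0.04. The median of the list was 0.08.

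The growth hormone axis controls Igf1 transcription in liver and other tissues. All 5 of its listed genes were above background, and none reached 1.5-fold on both arrays in either direction. The median was 0.15. Socs2, a feedback inhibitor of growth hormone signalling, was nearest to 0 at 0.08. Jak2, the kinase bound to the growth hormone receptor, was the lowest at -0.60, named after its value was seen.

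The list of Igf2 regulation held 6 genes, all above background. Igf2bp3, an RNA-binding protein of fetal tissues that binds Igf2 mRNA, was lower at 1.5-fold, with 579 and 634 in the RNA labelled KO against 1140 and 1106 in the RNA labelled WT. Its ratios were -0.98 and -0.80, and its other 2 probes had mean ratios of -0.63 and -0.45. Igf2bp2, a related RNA-binding protein, was nearest to 0, with a ratio of 0.00. The median of the list was 0.01.

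**Figure D4:**
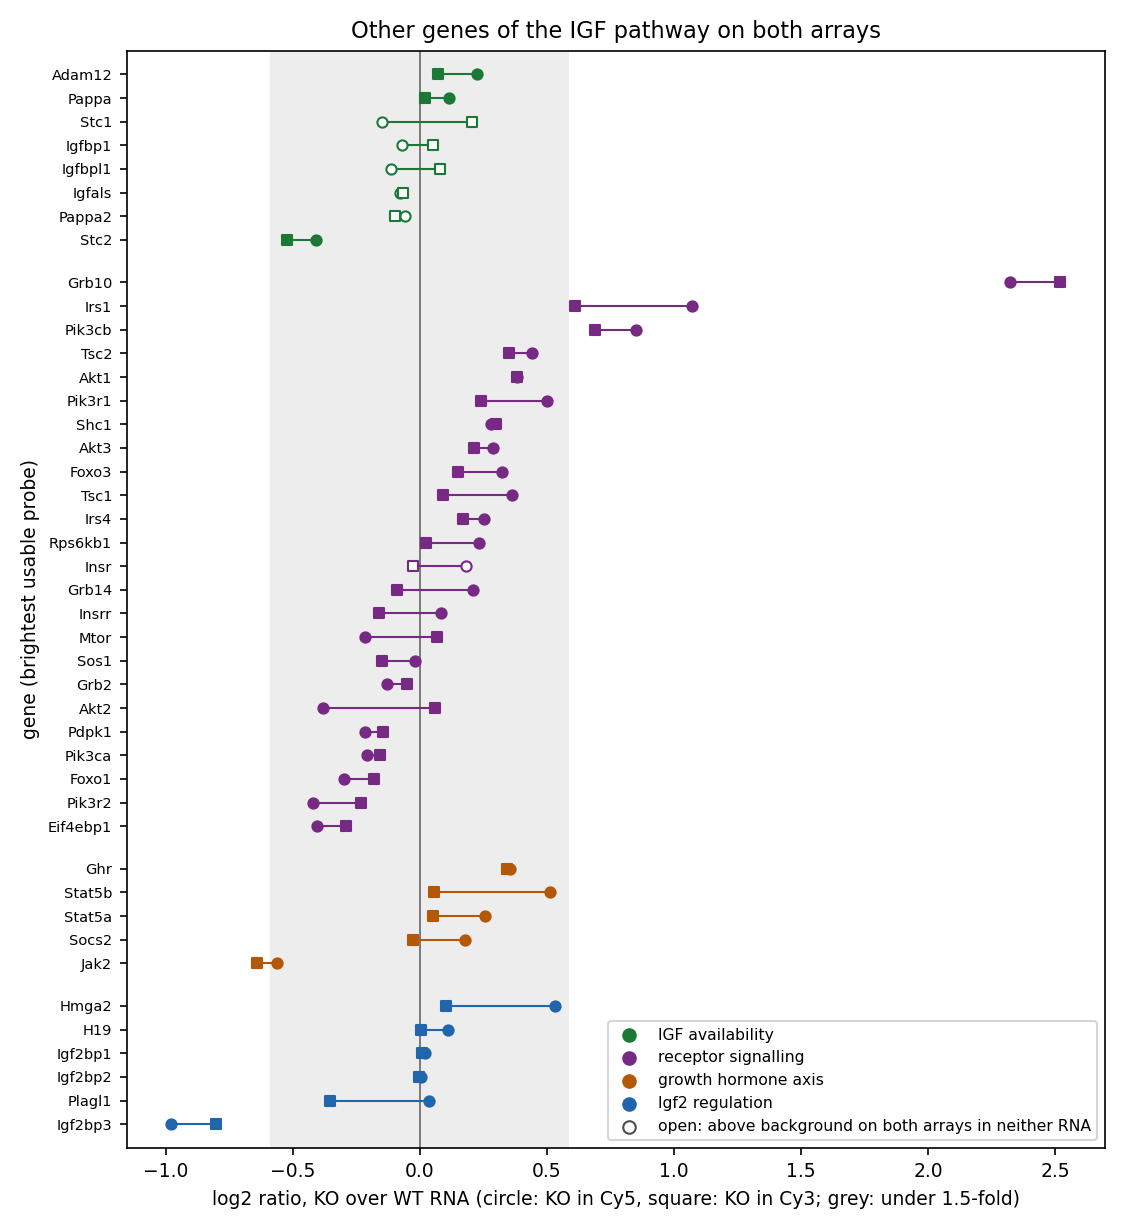
Log2 ratios of KO over WT RNA on both arrays (joined symbols) for genes of 4 IGF pathway lists, with the range under 1.5-fold in grey. Grb10, Irs1 and Pik3cb lie right of the grey range on both arrays and Igf2bp3 lies left of it.

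The cell type markers of the cultures were read on the same arrays. All 10 fibroblast markers were above background, with a median ratio of -0.33 and a summed intensity of 115500 to 123300 in the RNA labelled KO and 138100 to 145000 in the RNA labelled WT. At 1.5-fold 1 of them was higher, Fn1 (0.89, with all 4 probes above 0), and 1 was lower, Vim (-0.89 on a dim probe, its brighter one having been set aside), both named after their values were seen. The brightest probes of Col1a1 and Col1a2 were set aside too, and dimmer probes with mean ratios of -0.56 and 0.00 stood for these genes. With all spots kept, the brightest probes of Col1a1, Col1a2 and Vim had mean ratios of -0.85, -0.62 and -0.50. None of the listed markers of endothelium, muscle or liver, tissues that can also supply IGF system transcripts, was above background on both arrays. Macrophage markers were above background for 2 of 4 genes, with a median of -0.08, and cartilage and bone markers for 4 of 5, with a median of 0.01. Of the 4 epithelial markers 1 was above background, Krt19, with a ratio of 2.12.

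Adipocyte markers were higher alongside Igf1 and Igfbp5. Of 4 listed genes read here 3 were above background and higher at 1.5-fold, 2 of them at 2-fold, and the median was 1.87. The summed intensity of the list ran from 4728 to 5406 in the RNA labelled KO and from 823 to 850 in the RNA labelled WT. Pparg, the nuclear receptor that drives fat cell formation, had a ratio of 2.83, while the defining secreted product Adipoq was not above background in either RNA (ratio 0.00). Both are named after their values were seen. The part of these cells or genes in the IGF system ratios was not tested.

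**Figure D5:**
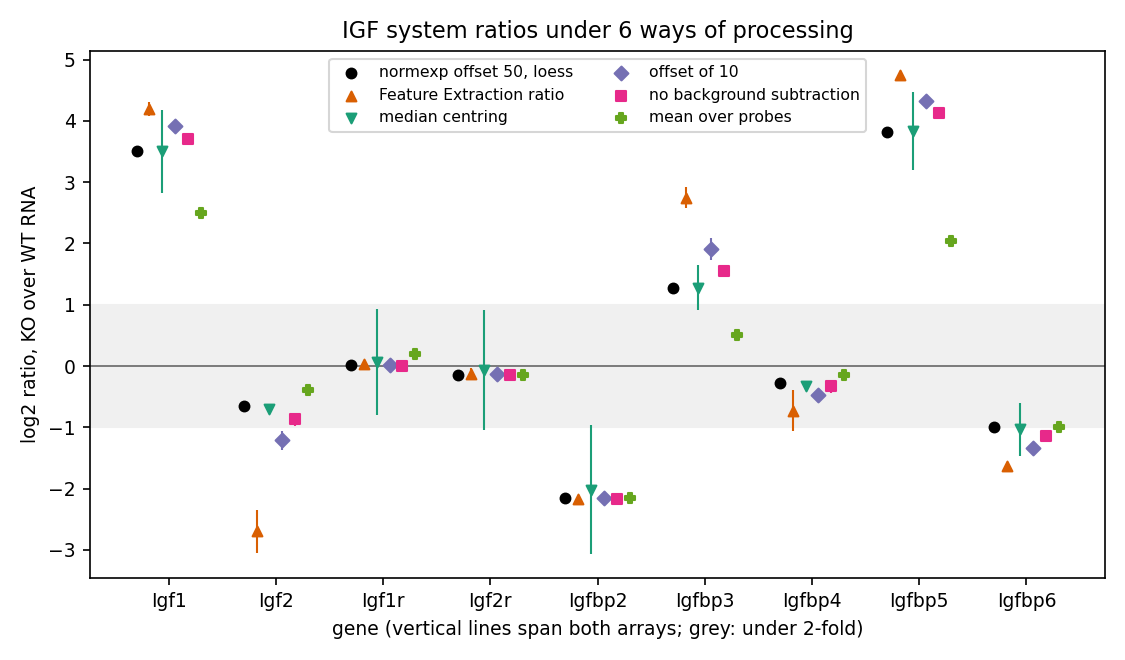
Mean log2 ratio of KO over WT RNA for 9 IGF system genes under 6 ways of processing, with vertical lines that span both arrays and the range under 2-fold in grey. Igfbp5 runs from 2.04 to 4.75, Igf2 from -2.70 to -0.39, Igfbp3 from 0.50 to 2.75 and Igfbp2 from -2.17 to -2.02. Median centring without loess widens the gap between the arrays for bright genes.

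The called set was read again under other ways of processing. Feature Extraction's own ratio, to which no offset was added, gave Igf2 a ratio of -2.70 and Igfbp6 one of -1.64, and called both as lower. It also raised the ratios of Igf1 to 4.20, Igfbp5 to 4.75 and Igfbp3 to 2.75. With median centring in place of loess, Igfbp3 and Igfbp2 were no longer called, since 1 array fell under 2-fold at 0.91 and -0.97. The other array gave 1.645 and -3.07. The mean of Igfbp3 was 1.28, and that of Igfbp2 went from -2.16 to -2.02, by slightly more than the SD of 1 probe between the arrays. Averaging over exchanged dyes largely cancels a dye bias, so these means are no check of the scaling. When all probes of a gene were averaged, the ratio of Igfbp3 became 0.50 and was no longer called, while Igf1 at 2.50 and Igfbp5 at 2.04 were.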

How the data were processed

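Total RNA of MEFs was labelled with Cy5 or Cy3 and hybridised to Agilent arrays. Per the file headers, the arrays were read with Agilent Feature Extraction 10.5.1.1, and each spot's mean signal and local background median were deposited as intensity in arbitrary units. The deposited files also hold Feature Extraction's log10 ratio of Cy5 over Cy3. A separate table deposited by the authors holds log2 ratios, which ran as KO over WT on both arrays when set against the scanner values (r of 0.9999 and 0.9996, column medians of -0.02 and 0.04). Both arrays shared 1 slide and 1 scan.

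In R 4.3.3, limma 3.58.1 corrected the intensities by normexp with an offset of 50, and they were normalised by loess within each array. The offset pulls ratios of dim probes towards 0. Control spots (1639 of 45018) had no weight, and outlier spots (390 and 378) were left out. No spot was saturated. Intensities per channel followed loess and Aquantile. Spots of a probe were averaged, the second array was turned, and the arrays were averaged as 1 replicate. Across 40875 probes, which are not independent replicates, r between the arrays was 0.899 (Pearson) and rho 0.626 (Spearman). The number of arrays limits the precision. A probe with repeated spots counted as above background where at least a share of 0.5 of them carried the flag. For a probe not well above background in 1 RNA, the fold given is that of its mean ratio and is no lower limit.

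The members and gene lists were chosen with earlier results of these data known. All members are named, with the pathway genes at least 1.5-fold apart on both arrays and the gene nearest to 0 in each list. A listed gene that is counted but neither named nor plotted is not reported here. Of the 20 member probes, 15 had an accession in a table of mouse genes (GRCm38.p6), always with the same symbol. Promoter windows came from RefSeq. Exon and untranslated region positions of probes were not analysed here. The alternatives were other background, scaling, spot and probe rules, each array alone, the methods' t-test and limma's test. The 2-fold part of the calling step was tested on simulated data. There the background rule was left out, and changes were added only to probes above background in both RNAs. The pass mark used the brighter of these, so the test does not cover dim probes. Tests used scipy 1.17.1 and statsmodels 0.14.6, tables pandas 2.3.3 and numpy 2.4.6, and plots matplotlib 3.10.9, under Python 3.11.15.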

Additional observations from a re-analysis of the deposited data

Results flagged for a closer look

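Igfbp7, which binds insulin and, weakly, IGFs, was outside every comparison above because its only spot was marked as uneven in both channels on both arrays. The spot was very bright, with a raw Cy5 signal of 100400 and a Cy3 signal of 48980 where Cy5 carried the RNA labelled KO, and of 162100 and 26940 on the second array, over local backgrounds of 29 to 43. With all spots kept, the log2 ratio of KO over WT was -0.78 on the first array and -1.11 on the second, a mean of -0.94. It is given as a value outside the comparisons, and it would not pass the 2-fold rule on the first array. There the raw signal of the RNA labelled KO exceeded that of the RNA labelled WT, so the negative sign on that array came from the normalisation.
Htra1, a secreted serine protease of the IGF availability list, was set aside in the same way, since its only spot was marked as uneven on both arrays. With all spots kept, its log2 ratio was -1.96 on the first array and -1.67 on the second, a mean of -1.81.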

How the results depend on the processing

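The 4 called members kept their sign under every alternative that gave a ratio, and of 81 recomputed member ratios 51 shifted by under 1 SD between the arrays. Of the other 30, 24 became larger in size and 6 smaller, and the 1 ratio that changed sign was that of Igf1r, 0.01 in size. The number of members called higher was 3 except with median centring or the mean over probes (2 each) and with the methods' t-test after Benjamini-Hochberg adjustment (0). The number called lower, 1, became 3 with the deposited table, with Feature Extraction's ratio and with an offset of 10, where Igf2 and Igfbp6 joined. It became 2 without background subtraction and at 1.5-fold, where Igfbp6 joined, and 0 with median centring and with the adjusted t-test. Without 1 array in turn it ran from 1 to 2, Igfbp6 joining without the array on which Cy5 carried the RNA labelled KO. Over all probes, 599 were called higher and 503 lower. These counts were 1280 and 1220 with the deposited table and also with Feature Extraction's ratio, 321 and 169 with median centring, and 1480 and 1515 at 1.5-fold. The methods' t-test at an unadjusted p of 0.05 with a 2-fold mean gave 524 and 443 probes, 0 and 0 after adjustment, while limma with Benjamini-Hochberg adjustment gave 662 and 598. With the 2-fold size required, both tests called the same 4 members before adjustment of the former. Igfbp6, Igf2 and Igfbp4 also passed limma's adjusted threshold of 0.05, and only that size left them out. Both tests compare the RNAs hybridised and not the genotypes. Under each scaling the median over all probes stayed within 0.1 of 0, which the scaling itself largely fixes, so it is no check. The medians of the members and of the lists shifted by under 1 SD of 1 probe between the arrays, which is a wide measure for a median. Signal near background limits Igf2, Igfbp3, Igfbp4 and Igfbp6. It also limits the size of the Igf1 and Igfbp5 ratios, whose readings in the RNA labelled WT were dim. Those ratios were 3.50 and 3.82 here and 4.20 and 4.75 with Feature Extraction's ratio. No paired analysis was possible because the labels name no separate samples, and the arrays were treated as 1 replicate.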
